A study of Homo sapiens with 6 samples.

Results

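The genes described here are 10 members of the TGF-beta and activin pathway, chosen by name for their roles as ligands, receptors, SMAD proteins or feedback regulators. They are INHBA, TGFB1, TGFB2, TGFBR1, TGFBR2, SKIL, SKI, PMEPA1, SMAD7 and SMAD3. They were chosen with earlier results of these data known, so their counts beside those of all genes are descriptions only. A gene was represented by the probe set whose only symbol it was, and each of the 10 had 1 such probe set among the 18377 genes measured. The 6 arrays were Affymetrix HuGene-1_0-st-v1, a 1-colour whole-transcript platform. Their RNA came from MCF10A-HER2/3 cells, a derivative of MCF10A, an immortalised human mammary epithelial line that forms hollow spheres in 3D culture.

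The groups were SHP2 miR1, SHP2 miR2 and CTRL miR, with 2 arrays each. Cells of every group carried a doxycycline-inducible lentiviral vector, received doxycycline from the day after seeding and were kept in 3D culture for 15 days. The medium of all groups contained EGF, insulin, cholera toxin, hydrocortisone and horse serum. SHP2 is the tyrosine phosphatase encoded by PTPN11 and acts between receptor tyrosine kinases and the RAS-ERK cascade. The 2 SHP2 miRs are separate constructs against the same transcript, so each group pair asks how transcript levels stand with less SHP2. No label states that the replicates are independent cultures. The p-values therefore measure only array-to-array spread within groups, possibly technical.

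TGF-beta and activin ligands are secreted dimers that bring type II and type I receptor kinases together at the cell surface. The active type I receptor phosphorylates SMAD2 and SMAD3, which enter the nucleus with SMAD4 and switch on target genes. Some of those targets, among them SMAD7, SKIL and PMEPA1, encode inhibitors of the pathway, which makes them both readouts and brakes. In mammary epithelium, TGF-beta is known for restraining proliferation and, in some settings, for promoting a mesenchymal state.

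PTPN11 was checked first. Its log2 values were 6.04 and 5.71 on the SHP2 miR1 arrays and 6.90 and 7.28 on the SHP2 miR2 arrays, against 7.96 and 8.44 on the CTRL miR arrays. The SHP2 miR values lay below both controls, lowest with SHP2 miR1. In limma over all genes PTPN11 fell by 2.32 with SHP2 miR1 (adjusted p = 0.000548), while its difference with SHP2 miR2, -1.11, missed the threshold of 0.05 (adjusted p = 0.0813). Array medians over all probe sets lay between 5.23 and 5.35, and replicates correlated at r = 0.985 or 0.986 across genes. The SD over probe sets was ordered by group. It was 1.92 on both SHP2 miR1 arrays, 1.95 and 1.97 on the SHP2 miR2 arrays, and 1.99 and 2.02 on the CTRL miR arrays. Control replicate 2 was farther from the SHP2 miR1 arrays (r = 0.958 and 0.960) than control replicate 1 (r = 0.971 and 0.972). Of 7 measured mammary basal epithelial markers, including KRT5, KRT14 and CDH1, all 7 lay above the 40th percentile of probe sets. KRT17 and TP63 had no probe set with their symbol alone. Of the 7 measured basal markers 1 rose and 1 fell on the average of both SHP2 miRs, as did 1 and 1 of 5 endothelial markers. Of the fibroblast and leukocyte markers, 0 of 7 and 0 of 4 passed the threshold used below. Over all genes, 1.53% passed it higher and 2.67% lower. Of the fibroblast markers 5 of 7 lay above that percentile, PDGFRA and LUM not, and their mean log2 value was 5.13 to 5.18 with SHP2 miR1 and 4.98 to 5.11 with SHP2 miR2, against 5.06 to 5.08 in control. The mean log2 value of the leukocyte list was 6.14 to 6.17 with SHP2 miR1 and 6.06 to 6.34 with SHP2 miR2. In control it was 5.89 to 5.99. Of the 4 measured leukocyte markers 3 lay above that percentile, namely CD3E, CD14 and CD68. PTPRC, which defines leukocytes, lay under it. The part of these cell types in the results was not tested.

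Averaged over both SHP2 miRs, 3 of the 10 genes fell and 0 rose. They were INHBA, which encodes the activin A subunit, and the feedback genes SKIL and PMEPA1. SKIL fell 2.61-fold and PMEPA1 2.06-fold. INHBA fell 3.05-fold by its deposited values, but 3 of its 4 SHP2 miR values lay under the 40th percentile of probe sets (log2 4.76), where signal above background was not shown, so the size of its fold is uncertain. The other 7 genes, which include both receptors, SMAD3 and the inhibitory SMAD7, did not pass the threshold, an adjusted p of 0.05 over all genes in limma. Over all 18377 genes, 4.20% passed in either direction, 2.67% lower and 1.53% higher. Of the 10 genes, 9 had a negative average difference, against 47.2% of all genes. The median of the 10 was -0.30 on the log2 scale, against 0.02 over all genes. In bulk RNA, fewer cells of a type and less RNA per cell cannot be told apart.

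**Figure D1:**
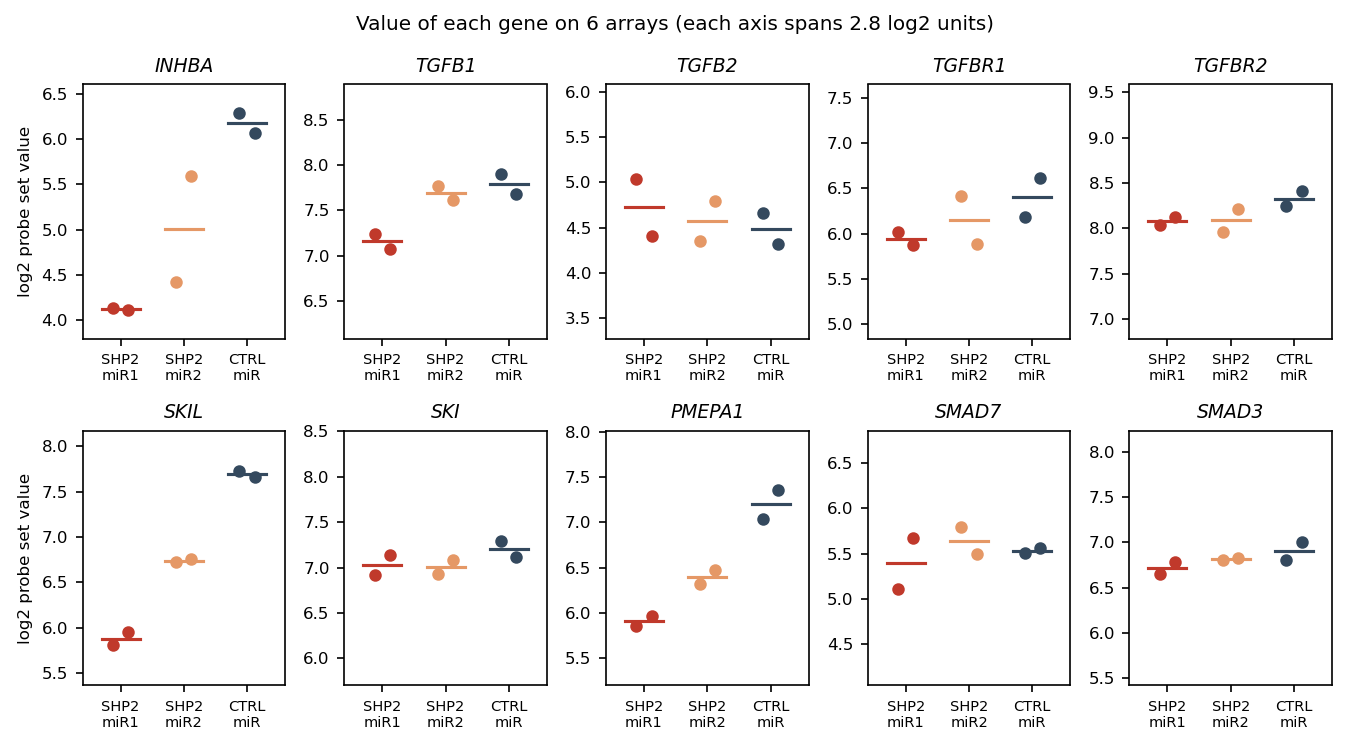
Log2 probe set value (vertical axis) of each of the 10 genes on the 2 arrays of SHP2 miR1, SHP2 miR2 and CTRL miR; points are arrays and lines are group means. INHBA, SKIL and PMEPA1 step down to means of 4.13, 5.88 and 5.91 with SHP2 miR1, against 6.18, 7.69 and 7.20 in control, while the groups overlap for TGFB2 and SMAD7.

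The promoters of the 3 genes that fell are shown with that of SMAD7, a feedback gene that did not pass, so that their letters can be compared. Sequences are from RefSeq on GRCh38.p14 and run from 150 bases before to 15 bases after the transcription start, on the gene's strand. Capitals mark the motifs searched on both strands, which were chosen after these promoters had been read. These were the cAMP response element TGACGTCA, its one-letter variant TGATGTCA, the AP-1 motif TGANTCA and the SMAD-binding letters CAGAC.
INHBA, chr7:41703076-41703240, minus strand: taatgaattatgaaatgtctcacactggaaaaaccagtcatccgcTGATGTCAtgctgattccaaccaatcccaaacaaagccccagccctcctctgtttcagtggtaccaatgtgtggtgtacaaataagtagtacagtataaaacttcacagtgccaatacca
SKIL, chr3:170357565-170357729, plus strand: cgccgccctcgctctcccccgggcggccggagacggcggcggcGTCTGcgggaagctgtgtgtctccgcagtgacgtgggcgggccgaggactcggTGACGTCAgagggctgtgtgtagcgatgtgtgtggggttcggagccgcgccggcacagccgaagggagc
PMEPA1, chr20:57710001-57710165, minus strand: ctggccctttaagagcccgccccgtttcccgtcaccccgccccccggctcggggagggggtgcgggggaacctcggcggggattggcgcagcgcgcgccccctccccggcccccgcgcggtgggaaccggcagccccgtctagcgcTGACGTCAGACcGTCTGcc
SMAD7, chr18:48950951-48951115, minus strand: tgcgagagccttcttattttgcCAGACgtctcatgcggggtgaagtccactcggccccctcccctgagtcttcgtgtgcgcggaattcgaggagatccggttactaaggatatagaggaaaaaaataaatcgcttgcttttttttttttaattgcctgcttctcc

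SKIL carried TGACGTCA at bases -54 to -47 from its start. PMEPA1 carried it at -4 to 4, across the start shown, where it overlaps a CAGAC at bases 3 to 7. In the set of promoters used, PMEPA1 had 4 starts, SMAD7 had 3 and INHBA had 1. The PMEPA1 start shown is the one with TGACGTCA, and the SMAD7 start shown is its outermost. INHBA held the variant TGATGTCA at -105 to -98. The annotated spans of INHBA and PMEPA1 reach further upstream than these promoters, to bases 41705406 and 57711472. Letters there were not searched. Among 35116 promoter windows of 300 bases (250 before the start and 50 after), 1.85% held TGACGTCA and 2.61% held TGATGTCA. AP-1 letters were in 7.71% of windows and CAGAC in 45.3%. These shares are per window, and PMEPA1 had 4. Since the motifs were chosen after these promoters had been read, the shares do not measure how unusual the matches are. Of the 10 genes, 9 had a window, SKI being the exception, and TGFBR2 and SMAD3 were those with AP-1 letters, at -6 to 1 and at -56 to -50 of 1 start each. A match describes letters only, and no binding was measured.

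Among the ligands, INHBA fell on average over both SHP2 miRs, TGFB1 fell with SHP2 miR1 by a call that was lost with any array left out, and TGFB2 passed in no comparison. INHBA lies on chromosome 7 (41685114 to 41705406, GRCh38.p14), and its product pairs into activin A, which signals through SMAD2 and SMAD3. Its log2 values were 4.14 and 4.11 on the SHP2 miR1 arrays and 4.43 and 5.59 on the SHP2 miR2 arrays, against 6.29 and 6.06 in control. The groups did not overlap, and the SHP2 miR2 arrays were 1.16 apart, wider than any other pair of the 10 genes. The average difference was -1.61 (SE 0.27, adjusted p = 0.0130). With SHP2 miR1, where both arrays lay under log2 4.76, it was -2.05 (SE 0.31, adjusted p = 0.00617), and no exact fold is drawn from it. For SHP2 miR2 the difference of -1.17 (SE 0.31, 95% interval -1.87 to -0.47) missed the threshold (adjusted p = 0.192). The average call was lost without control replicate 1 (adjusted p = 0.0988) or 2 (0.134), at differences of -1.50 and -1.72. The SHP2 miR1 call was lost without control replicate 2 (0.0626).

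TGFB1, on chromosome 19, encodes TGF-beta 1. Its values were 7.24 and 7.08 on the SHP2 miR1 arrays and 7.77 and 7.61 on the SHP2 miR2 arrays, against 7.90 and 7.68 in control. The SHP2 miR1 arrays lay below both controls, and the SHP2 miR2 arrays overlapped them. TGFB1 fell by 0.63 with SHP2 miR1 (SE 0.16, 1.55-fold, adjusted p = 0.0438). With SHP2 miR2 its difference was -0.10 (95% interval -0.46 to 0.26, adjusted p = 0.869). The SHP2 miR1 call did not hold with any array left out, with adjusted p between 0.0586 and 0.186, nor after quantile normalization, where the difference was -0.51 (adjusted p = 0.0901).

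TGFB2, on chromosome 1, encodes a second TGF-beta isoform. Its values were 5.04 and 4.41 on the SHP2 miR1 arrays and 4.36 and 4.79 on the SHP2 miR2 arrays, against 4.66 and 4.32 in control. All 3 groups overlapped, and the average difference was 0.16 (95% interval -0.31 to 0.63, adjusted p = 0.705). TGFB2 was the 1 member with a mean over all 6 arrays under the 40th percentile, the limit for calling a gene dim.

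The receptor genes did not pass in any of the 3 comparisons with control. TGFBR1, on chromosome 9, encodes the type I receptor kinase that phosphorylates SMAD2 and SMAD3. Its values were 6.02 and 5.87 on the SHP2 miR1 arrays and 6.42 and 5.88 on the SHP2 miR2 arrays, against 6.18 and 6.62 in control. The SHP2 miR1 arrays lay below both controls and the SHP2 miR2 arrays straddled the lower one, for an average difference of -0.35 (95% interval -0.78 to 0.07, adjusted p = 0.317). TGFBR2, on chromosome 3, encodes the type II receptor that binds ligand and activates TGFBR1. It had 8.04 and 8.12 on the SHP2 miR1 arrays and 7.96 and 8.21 on the SHP2 miR2 arrays, against 8.25 and 8.41 in control. All 4 SHP2 miR arrays lay below both controls, yet the average difference of -0.24 (95% interval -0.55 to 0.07) did not pass (adjusted p = 0.351).

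All 4 SHP2 miR arrays lay below both controls for 4 of the 10 genes, namely INHBA, TGFBR2, SKIL and PMEPA1, and above both for 0. Over all genes, 13.6% lay below both controls and 12.6% above.

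SMAD3, on chromosome 15, is the signal-transducing SMAD of the set. Its values were 6.65 and 6.79 on the SHP2 miR1 arrays and 6.80 and 6.83 on the SHP2 miR2 arrays, against 6.80 and 7.01 in control. The groups differed by little, and the average difference was -0.14 (95% interval -0.44 to 0.16, adjusted p = 0.596). Its 95% interval leaves out decreases beyond 0.44.

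The feedback genes parted into those that fell and those that did not. SKIL, on chromosome 3 (170357715 to 170396849), encodes SnoN, a co-repressor that binds SMAD complexes on DNA and is itself induced by TGF-beta. Its values were 5.81 and 5.95 on the SHP2 miR1 arrays and 6.72 and 6.75 on the SHP2 miR2 arrays, against 7.73 and 7.66 in control. The 3 groups were fully apart, and the spread within groups (pooled SD 0.07) was the smallest of the 10 genes. SKIL fell by 1.38 on average (SE 0.13, adjusted p = 0.000867) and by 1.81 with SHP2 miR1 (SE 0.15, 3.51-fold, adjusted p = 0.000326). It was also the 1 member past the threshold with SHP2 miR2, where it fell by 0.96 (SE 0.15, 1.94-fold, adjusted p = 0.0335). The average and SHP2 miR1 calls held with any array left out, at adjusted p of at most 0.0228 and 0.00854. The SHP2 miR2 call was lost with any array left out (adjusted p 0.0530 to 0.231), while its difference stayed between -0.99 and -0.92.

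PMEPA1, on chromosome 20 (57648396 to 57711472), encodes a TGF-beta-induced membrane protein that sequesters SMAD2 and SMAD3. Its values were 5.86 and 5.96 on the SHP2 miR1 arrays and 6.31 and 6.48 on the SHP2 miR2 arrays, against 7.04 and 7.36 in control. As for SKIL, the 3 groups were apart, lowest with SHP2 miR1. PMEPA1 fell by 1.04 on average (SE 0.14, adjusted p = 0.00522) and by 1.29 with SHP2 miR1 (SE 0.17, 2.44-fold, adjusted p = 0.00267). For SHP2 miR2 PMEPA1 differed from control by -0.80 (SE 0.17, 95% interval -1.18 to -0.43, adjusted p = 0.0945). The average call was lost without control replicate 2, where the difference was -0.89 (adjusted p = 0.0903).

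SMAD7, on chromosome 18, encodes the inhibitory SMAD that blocks type I receptors and recruits ubiquitin ligases to them. Its values were 5.11 and 5.67 on the SHP2 miR1 arrays and 5.79 and 5.50 on the SHP2 miR2 arrays, against 5.50 and 5.56 in control. Both SHP2 miR groups spread around the controls. The average difference was -0.01 (95% interval -0.42 to 0.39, adjusted p = 0.977), and its sign turned with some arrays left out.

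SKI, on chromosome 1, encodes the co-repressor most closely related to SnoN. It had 6.91 and 7.13 on the SHP2 miR1 arrays and 6.93 and 7.08 on the SHP2 miR2 arrays, against 7.30 and 7.12 in control. One SHP2 miR1 array overlapped the controls. The average difference was -0.19 (95% interval -0.51 to 0.12, adjusted p = 0.465).

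**Figure D2:**
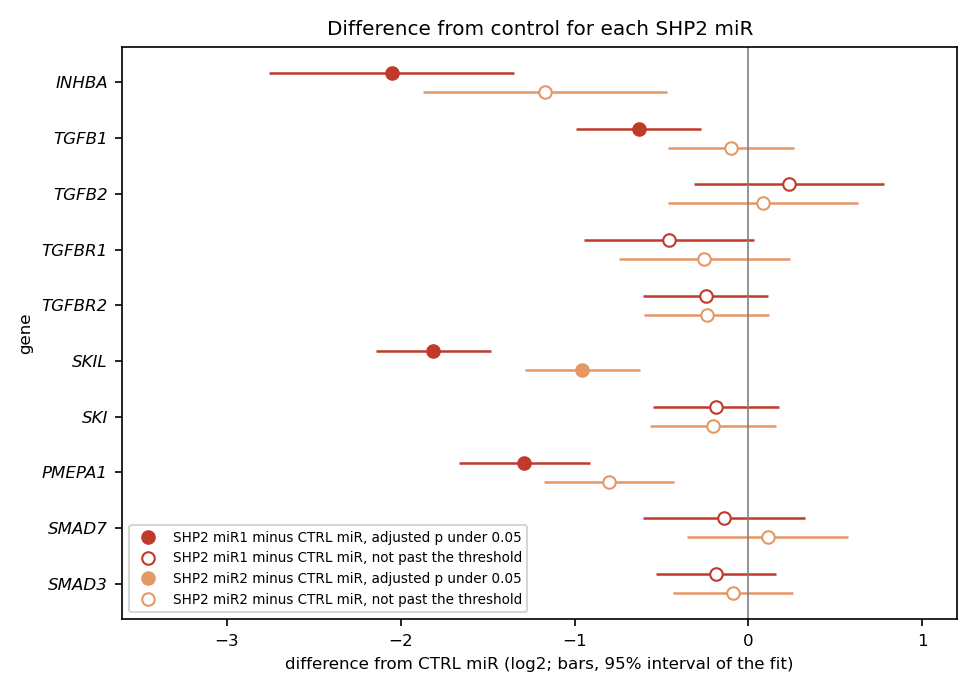
Difference from CTRL miR on the log2 scale (horizontal axis) for each of the 10 genes, with SHP2 miR1 above SHP2 miR2 in each row; bars are 95% intervals of the fit, and filled points passed an adjusted p of 0.05. The SHP2 miR1 points of INHBA, SKIL, PMEPA1 and TGFB1 are filled, at -2.05, -1.81, -1.29 and -0.63, and with SHP2 miR2 SKIL alone is filled, at -0.96.

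By construct, 4 of the 10 genes fell with SHP2 miR1 (8.60% of all genes passed, 5.94% lower and 2.66% higher) and 1 fell with SHP2 miR2 (0.370% of all genes passed, 0.180% lower and 0.190% higher). These comparisons use the same control arrays. SHP2 miR2 against SHP2 miR1 tests the difference between the constructs. There, 0 of the 10 passed in limma (0.190% of all genes passed, 0.152% higher and 0.0381% lower). SKIL was higher with SHP2 miR2 by 0.86 (SE 0.15, 95% interval 0.53 to 1.19), which missed the threshold over all genes (adjusted p = 0.0633). It passed with a mean-variance trend in the prior (adjusted p = 0.00799), with dim genes left out (0.0379) and after centring on array medians (0.94, adjusted p = 0.0399).

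INHBA was higher with SHP2 miR2 than with SHP2 miR1 by 0.88 (95% interval 0.18 to 1.59, adjusted p = 0.209). TGFB1 was higher by 0.53 (0.17 to 0.89, adjusted p = 0.162) and PMEPA1 by 0.49 (0.11 to 0.86, adjusted p = 0.200). The intervals of SKIL, INHBA, TGFB1 and PMEPA1 excluded 0 gene by gene, with no allowance for the number of genes. How many of all genes did so was not counted. PTPN11 itself was higher with SHP2 miR2 by 1.21 (0.73 to 1.70, adjusted p = 0.0645). For TGFBR2, SKI and SMAD3 the difference between constructs was between -0.02 and 0.10, with intervals within -0.38 and 0.45.

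**Figure D3:**
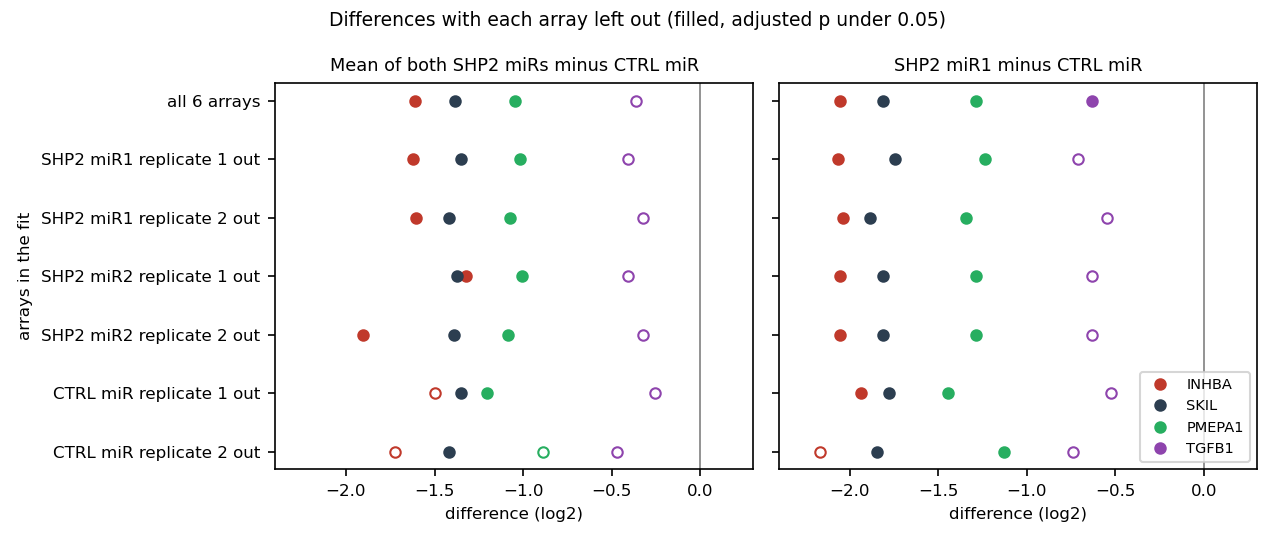
Difference on the log2 scale (horizontal axis) of INHBA, SKIL, PMEPA1 and TGFB1 with all 6 arrays and with each array left out (rows), for the mean of both SHP2 miRs (left) and SHP2 miR1 (right) minus CTRL miR; filled points passed an adjusted p of 0.05. SKIL stays filled throughout, and its average difference stays between -1.42 and -1.35, while INHBA loses its average call without either control.

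The rest of the pathway was read from 7 lists by role, which were chosen with earlier results of these data known. The shares of listed genes beside those of all genes are therefore descriptions only. Of 90 other genes measured, 12 fell and 2 rose on average over both SHP2 miRs, or 15.6%, against the 4.20% of all genes given above. Their median difference was -0.13. With SHP2 miR1, 16 fell and 2 rose (20.0% of the 90, against 8.60% of all genes), and with SHP2 miR2, 2 fell and 0 rose (2.22%, against 0.370% of all genes). BMPR1A and PTHLH were among the listed genes that had no probe set with their symbol alone. The count of 14 dropped with any array left out, most without either control. The count over all genes dropped in each of those fits too.

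Among 17 genes for other ligands and for latency, 4 fell and 1 rose (median 0.06). LTBP1, which anchors latent TGF-beta in the matrix, had 9.14 and 8.96 on the SHP2 miR1 arrays and 9.56 and 9.59 on the SHP2 miR2 arrays, against 9.98 and 10.08 in control, and fell by 0.72 (SE 0.13, adjusted p = 0.0178). ITGB6 and ITGAV encode the chains of the integrin that frees TGF-beta from its latent form. ITGB6 fell by 0.77 (SE 0.14, adjusted p = 0.0186) and ITGAV by 0.68 (SE 0.14, adjusted p = 0.0326). The ligand GDF11, which uses activin-type receptors, fell by 0.63 (SE 0.14, adjusted p = 0.0373). GDF11 had 4.62 and 4.66 on the SHP2 miR1 arrays and 4.756 and 5.04 on the SHP2 miR2 arrays. Its control values were 5.34 and 5.46. Both SHP2 miR1 values and the lower SHP2 miR2 value lay under log2 4.762, where signal above background was not shown. The size of the GDF11 difference is therefore uncertain. GDF15, a stress-induced distant member of the ligand family, rose by 0.79 (SE 0.14, adjusted p = 0.0187). All 5 missed the threshold without either control, at adjusted p of up to 0.306. Counting SHP2 miR arrays too, ITGAV missed it in 6 of 6 fits with an array left out, GDF11 in 5, LTBP1 in 4, and ITGB6 and GDF15 in 3 each. The 9 extracellular antagonists had 0 genes past the threshold in limma (median 0.00), with LEFTY1 at 0.30 (adjusted p = 0.323) and FSTL3, an activin-binding protein, at -0.23 (adjusted p = 0.407).

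Of 11 other receptors and co-receptors, 1 rose and 1 fell (median 0.06). TGFBR3 encodes betaglycan, a co-receptor that presents TGF-beta 2 to TGFBR2 and binds inhibin. It had 5.72 and 6.06 on the SHP2 miR1 arrays and 5.31 and 5.09 on the SHP2 miR2 arrays, against 3.88 and 4.38 in control. All 4 SHP2 miR arrays lay above both controls, and TGFBR3 rose by 1.41 (SE 0.18, adjusted p = 0.00369), with 0.0514 without control replicate 1. Both control values lay under log2 4.76, where signal above background was not shown, so no exact fold is given. BMPR2, the type II BMP receptor, fell by 0.78 (SE 0.14, adjusted p = 0.0187), a call lost without either control, SHP2 miR1 replicate 1 or SHP2 miR2 replicate 1 (adjusted p up to 0.221). Of 9 other SMAD and adaptor genes 0 passed in limma (median -0.23), and the smallest p-values were those of SMAD2 at -0.36 (adjusted p = 0.209) and ZFYVE9, the SMAD anchor SARA, at -0.34 (adjusted p = 0.294).

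Of 13 intracellular attenuators, 2 fell and 0 rose (median -0.33). They were SMURF2 and SMURF1, ubiquitin ligases that act with SMAD7 on the receptors. SMURF2 fell by 0.73 (SE 0.14, adjusted p = 0.0218) and SMURF1 fell by 0.59 (SE 0.13, adjusted p = 0.0417). With an array left out, SMURF2 missed the threshold in 5 of 6 fits (all but the one without SHP2 miR1 replicate 1, adjusted p up to 0.240) and SMURF1 in 6 of 6 (up to 0.236). SMURF1 also missed it after quantile normalization (0.0718) and with array weights (0.0516).

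Among 23 measured target genes, 4 fell and 0 rose (median -0.32). ANGPTL4, a secreted lipase inhibitor, had 7.80 and 7.54 on the SHP2 miR1 arrays and 8.70 and 8.61 on the SHP2 miR2 arrays, against 9.69 and 9.57 in control. The 3 groups were apart, and it fell by 1.46 on average (SE 0.14, adjusted p = 0.000959), a call that held with any array left out. SNAI2, a transcription factor of the mesenchymal state, fell by 1.27 (SE 0.16, adjusted p = 0.00315). Fibronectin FN1 fell by 1.05 (SE 0.13, adjusted p = 0.00309), and by nearly the same amount under either construct (-1.07 for SHP2 miR1, -1.03 for SHP2 miR2). The transcriptional repressor BHLHE40 fell by 0.80 (SE 0.13, adjusted p = 0.0130). Without control replicate 2 SNAI2 reached 0.0681 and FN1 0.0562, and without either control BHLHE40 reached up to 0.163. ANGPTL4 and FN1 were the 2 genes of these lists past the threshold with SHP2 miR2, at adjusted p of 0.0463 and 0.0251. With SHP2 miR2, ANGPTL4 missed it with any array left out (up to 0.266), and FN1 without either control or either SHP2 miR2 array (up to 0.206). Several of these targets also answer other signals, so the list does not read TGF-beta alone. In the BMP arm 1 of 8 genes passed (median -0.01). This was the ligand BMP2, which fell by 1.04 (SE 0.15, adjusted p = 0.00551) and missed the threshold without either control (up to 0.0685).

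**Figure D4:**
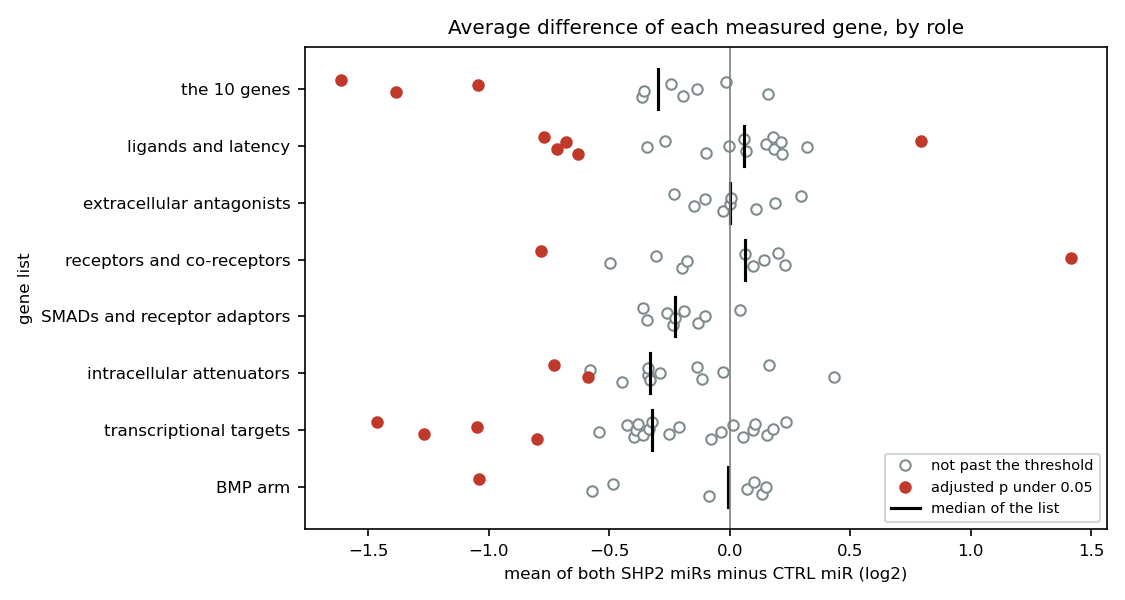
Average difference of both SHP2 miRs from CTRL miR on the log2 scale (horizontal axis) for the 10 genes and for 7 other lists (rows); each point is a gene, filled where its adjusted p was under 0.05, and black bars are list medians. Filled points lie to the left of 0 except GDF15 at 0.79 and TGFBR3 at 1.41.

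For each of the 3 genes that fell on average, the genes with the most similar profile over the 6 arrays were sought among 11026 genes above the 40th percentile of mean value, by Pearson correlation. The arrays fall into 3 groups, so r is a description. For SKIL they were CA12, ETS1 and MAP4K4, each at r = 0.997. For PMEPA1 they were RIC1 (r = 0.998), AFF4 (r = 0.997) and NRDC (r = 0.997). For INHBA they were TIAL1 (r = 0.996), HIP1R (r = 0.995) and SPRED1 (r = 0.993). The correlation takes no account of the size of a difference. In limma, the average differences of TIAL1 (-0.24, adjusted p = 0.325), HIP1R (-0.48, 0.104) and NRDC (-0.50, 0.0683) did not pass the threshold. The other similar genes named here passed it, all lower.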

How the data were processed

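The authors deposited 1 log2 value per probe set and array; base 2 was inferred from the range. Per the submitters' processing notes, the tools were R 2.10 and oligo 1.8. The sources used here do not name the build or how background, scaling and summary were handled, and no measure of detection above background was used. The platform annotation pairs 19310 of 28869 probe sets with a single symbol, 1752 with more than 1 and 7807 with no symbol; the brightest probe set of a gene was kept, for 18377 genes. A model of 3 group means was fitted by limma 3.58.1 (R 4.3.3) with eBayes (3 residual and 6.10 prior degrees of freedom). Two-sided p-values were adjusted by Benjamini-Hochberg over all genes. The code of the fit was run on simulated data with known shifts, equal in both SHP2 miR groups. That run does not test the calls made here. Differences are in log2 units with the SE of the fit. Groups came from sample titles.

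The 10 genes, the 7 pathway lists and the tests were chosen with earlier results of these data known, so they are described without list tests. The 10 genes and PTPN11 are always named; from each list the genes past the threshold (up to 6 by smallest p), or else 2 by smallest p, are named. Of the genes past the threshold, the 3 most similar profiles are named for each. The number of arrays limits the precision. Alternatives were prior, dim genes, scaling, probe set averaging, weights, arrays in the fit and the replicate number.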

Additional observations from a re-analysis of the deposited data

How the results depend on the processing

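Each difference of the 10 genes was recomputed under the alternatives. With settings other than a left-out array, 335 values kept their direction and side of the threshold, 5 newly passed it, 4 no longer did and 2 changed sign. With an array left out 204 kept both, 16 no longer passed and 20 changed sign. The cause of the changes was not tested, except that leaving out an array leaves fewer samples. The number of the 10 genes past the threshold on average was 3, and 1 to 3 with an array left out. With SHP2 miR1 it was 4, and 2 to 3 with an array left out. With SHP2 miR2 it was 1, and became 3 with a mean-variance trend (INHBA, 0.0443; PMEPA1, 0.0222), 0 with only the groups compared and 0 to 0 with an array left out. Between the constructs it was 0 (0 to 0 with an array left out) and became 1, SKIL, with the trend, with dim genes left out or with centring. Of the other pathway genes 14 passed on average, 22 with the trend and 2 to 11 with an array left out.

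No label says whether equal replicate numbers pair samples. Same-numbered deviations correlated at 0.067, 0.14 and 0.013 between groups. With 2 arrays per group these correlations cannot show whether samples were paired. With the replicate number as a block, the SHP2 miR2 count was 0 (SKIL, adjusted p = 0.0632; ANGPTL4 and FN1 among the other genes, 0.0594 and 0.0512), and the block changed no other call on the 10 genes.

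Signs turned in SHP2 miR2 against SHP2 miR1 for TGFBR2 (-0.092), GDF15 (-0.056) and FN1 (-0.056) under quantile normalization and for SKI (0.071) under centring. With an array left out, signs turned for the results that follow, with their ranges. On average these were TGFB2 (-0.010 to 0.33) and SMAD7 (-0.15 to 0.13). With SHP2 miR1 they were TGFB2 (-0.078 to 0.55) and SMAD7 (-0.42 to 0.14). With SHP2 miR2 they were TGFB1 (-0.21 to 0.0080), TGFB2 (-0.13 to 0.30), TGFBR1 (-0.52 to 0.015), SMAD3 (-0.19 to 0.016) and SMAD7 (-0.035 to 0.26). Between constructs they were TGFB2 (-0.47 to 0.16), TGFBR1 (-0.064 to 0.47), TGFBR2 (-0.12 to 0.13), SKI (-0.13 to 0.093), SMAD7 (-0.028 to 0.53), GDF15 (-0.14 to 0.20) and FN1 (-0.023 to 0.10).

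Counts over all genes also moved. On average 771 passed, 1793 with the trend and 108 to 512 with an array left out. With SHP2 miR1 1581 passed (489 higher, 1092 lower), 2786 with the trend, 1914 after centring (378 higher, 1536 lower) and 269 to 1308 with an array left out. With SHP2 miR2 68 passed, 367 with the trend, 154 with dim genes left out, 37 with the block and 0 to 60 with an array left out. Between constructs 35 passed, 446 with the trend, 95 with dim genes left out, 69 after centring, 55 with array weights, 12 with only the groups compared, 12 with the block and 0 to 15 with an array left out.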
